A study of Mus musculus with 27 samples.

Results

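Eosinophil genes and the eotaxins that attract eosinophils were followed through 4 groups of mouse lung libraries. The members were chosen by name, as the 7 symbols Ccl11, Ccl24, Ccr3, Il5ra, Prg2, Epx and Ear6 among the 21742 gene symbols of the linear RNA table. All 7 have a value in every library, and none of them is among the 4416 symbols of the circular RNA table. Of the 7, 5 reached 1 TPM (the share of all transcripts in a library, corrected for gene length) in at least 5 of the 27 libraries and were tested among 17437 genes. Epx and Ear6 stayed under 1 TPM in every library, so their statistics come from a fit without that filter.

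Left lobes of lungs were taken from mice of the BALB/c AnNHsd strain at an age of 87 days, with 5 libraries labelled Saline (unsensitized), 10 labelled CDG_HDM, 6 labelled AM155 and 6 labelled Dex_CDGHDM. The CDG_HDM lungs had been sensitized with house dust mite extract and cyclic di-GMP, a signalling nucleotide of bacteria that acts as an adjuvant. The protocol ran for 35 days. AM155 mice were given 3 intravenous doses of 2 mg/kg of an antisense oligonucleotide against miR-155 in lipid nanoparticles, and Dex_CDGHDM mice 3 intraperitoneal doses of 3 mg/kg of the glucocorticoid dexamethasone, each on days 11, 18 and 25. The labels state sensitization in words for Dex_CDGHDM but not for AM155, name no group given empty nanoparticles or a control oligonucleotide, and do not say that each library came from a separate mouse, so the p-values measure the spread between these libraries.

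Eosinophils are granulocytes that mature in bone marrow under interleukin-5 and enter tissue along gradients of the eotaxins CCL11 and CCL24, both of which act through the receptor CCR3. Their granules hold cationic proteins, among them major basic protein (Prg2), eosinophil peroxidase (Epx) and ribonucleases of the Ear family. In allergic airways interleukin-4 and interleukin-13 induce eotaxins in structural cells and macrophages, and eosinophils gather around the bronchi.

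The receptor genes are shown with the sequence before their start because GATA-family factors act in the eosinophil lineage and the letters AGATAA stand in both windows. The sequences are from RefSeq (GRCm38.p6), which gave a window for 4 of the 7 members, Ccr3, Il5ra, Epx and Ear6. Each printed window is the 250 bases before the annotated start, read on the strand of the gene from 5′ to 3′, with AGATAA in capitals. The Ccr3 window is chr9:124021721-124021970 on the plus strand, and the Il5ra window is chr6:106749038-106749287 on the minus strand.
Ccr3: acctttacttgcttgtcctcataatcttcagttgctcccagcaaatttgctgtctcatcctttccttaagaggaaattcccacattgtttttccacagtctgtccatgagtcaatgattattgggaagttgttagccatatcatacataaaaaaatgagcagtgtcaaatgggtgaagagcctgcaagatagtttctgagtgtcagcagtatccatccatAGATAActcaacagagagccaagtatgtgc
Il5ra: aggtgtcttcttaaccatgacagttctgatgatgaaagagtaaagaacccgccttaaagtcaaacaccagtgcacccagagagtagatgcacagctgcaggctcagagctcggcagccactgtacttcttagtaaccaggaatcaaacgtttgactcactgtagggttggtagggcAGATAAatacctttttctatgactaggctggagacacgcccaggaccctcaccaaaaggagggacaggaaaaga
The 6 letters begin 30 bases before the start of Ccr3 and 74 bases before that of Il5ra. Searched on both strands, AGATAA was in 10.0% of the 32851 windows of this length and was not in those of Epx or Ear6. The letters of STAT-type sites, TTC followed by GAA after 4 or 3 bases of any kind, were in 5.9% and 7.0% of all windows and in none of the 4 members' windows. A match describes the letters only and is not a binding site.

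The 7 genes lie on 6 chromosomes of GRCm38 in the GENCODE M21 annotation, all protein coding and none overlapping another annotated gene. Ccl11 is at chr11:82057823-82062955 and Epx at chr11:87864000-87875536, Ccl24 at chr5:135569937-135573049, and Ccr3 at chr9:124021972-124031689. Il5ra is at chr6:106710357-106749037, Prg2 at chr2:84980461-84983632 and Ear6 at chr14:51853699-51854643.

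All of them were low to moderate in whole lung. By mean TPM over the 27 libraries, Ccl11 stood above 52.5% of the symbols in the table, Ccl24 above 42.4%, Prg2 above 39.0% and Il5ra above 37.8%. Ccr3 stood above 26.3%, Ear6 above 15.6% and Epx above 9.27%. The labelled tissue carried its epithelial markers in every library, with Sftpc (surfactant protein C) at 12703 to 24047 TPM and Scgb1a1 (club cell secretoglobin) at 18382 to 76730 TPM. Linear TPM summed to 542264 to 858506 per library, and the 2 tables together left 9.57% to 32.8% of the TPM scale to other transcripts. Circular RNA took 25.4% of the summed TPM of both tables in AM155 5, 29.8% in AM155 6 and 27.7% in Dex_CDGHDM 4, against 3.99% to 12.9% in the other 24 libraries. AM155 6 was the lowest of its group for 6 of the 7 members, and Dex_CDGHDM 4 and Saline 4 were each the lowest for 5.

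**Figure D1:**
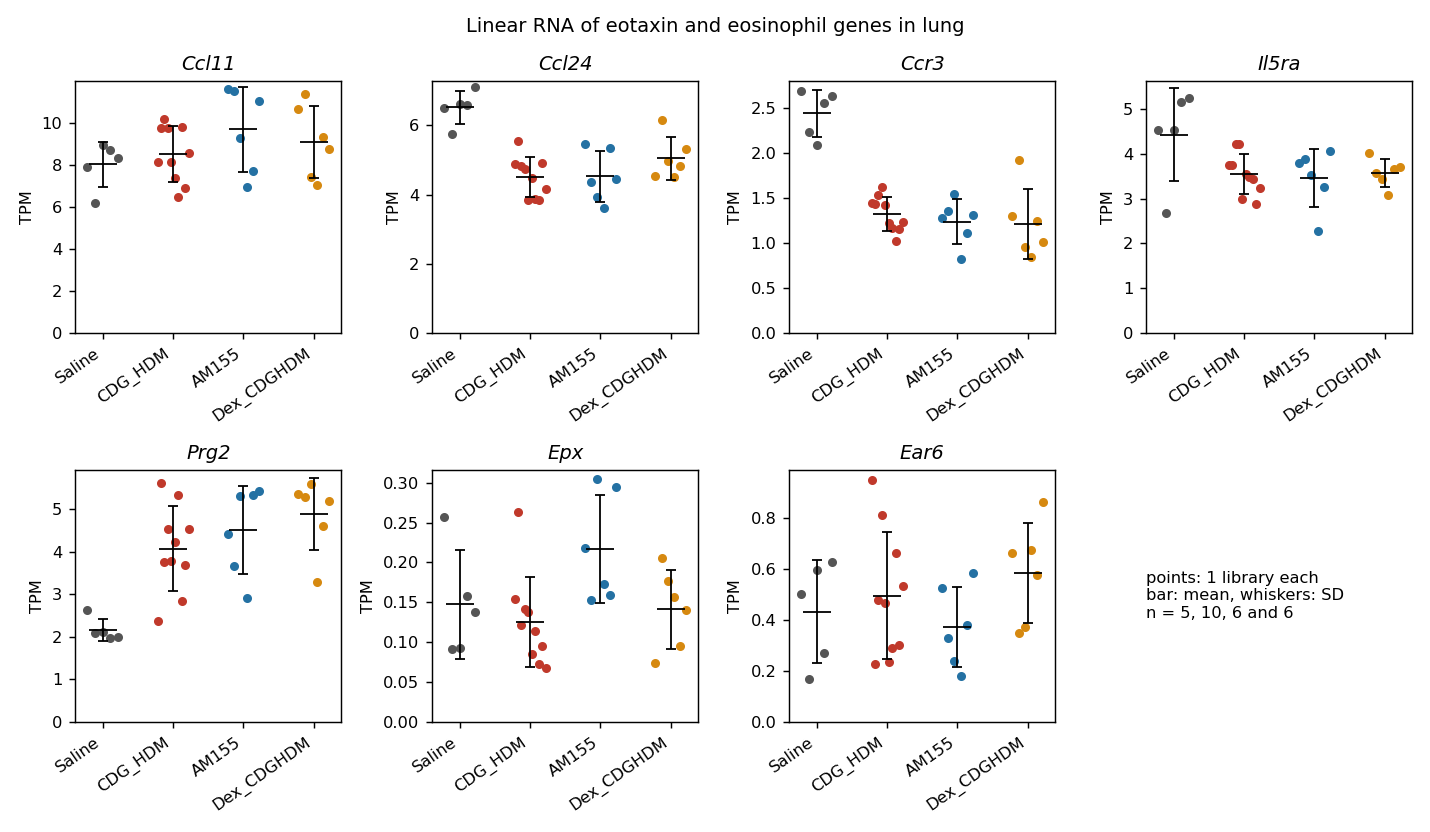
TPM (y axis, from 0) of each member in each library (points) by group (x axis), with the mean (bar) and SD (whiskers). Ccr3 and Ccl24 sit higher in the 5 Saline libraries, Prg2 sits higher in the sensitized and treated libraries, and Epx and Ear6 stay under 1 TPM throughout.

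The first question was what sensitization did to these genes in otherwise untreated mice (CDG_HDM minus Saline). Prg2 rose, Ccl24 and the eotaxin receptor gene Ccr3 fell, and Ccl11, Il5ra, Epx and Ear6 did not pass the test. So 3 of the 5 tested members changed, 1 upward and 2 downward, where 32.2% of all tested genes changed, 9.35% upward and 22.8% downward (limma, Benjamini-Hochberg adjusted p under 0.05). The median log2 change of the 5 was -0.24 against -0.10 over all tested genes. In bulk tissue, fewer cells of a type and less RNA per cell cannot be told apart.

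Among the ligands, Ccl11 (eotaxin-1) measured 7.90, 6.20, 8.95, 8.70 and 8.31 TPM in Saline 2, 4, 5, 8 and 10. In CDG_HDM it ran from 6.45 through a median of 8.35 to 10.2 TPM. The groups overlapped, with means of 8.01 ± 1.09 (SD, n = 5) and 8.50 ± 1.33 (SD, n = 10). The log2 change was 0.07 ± 0.122 (SE), with a 95% interval of -0.18 to 0.32 and a limma adjusted p of 0.689.

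Ccl24 (eotaxin-2) went the other way. It measured 6.51, 5.76, 6.62, 6.58 and 7.10 TPM in the Saline libraries in the same order, and 3.83, 4.61 and 5.55 TPM as lowest, median and highest of CDG_HDM. Every sensitized library lay below every Saline library, which also held for 1 other member, Ccr3, and for 14% of all tested genes in either direction. Mean TPM was 6.51 ± 0.483 (SD, n = 5) against 4.51 ± 0.577 (SD, n = 10), and the log2 change was -0.45 ± 0.0871 (SE; 95% interval -0.63 to -0.27; limma adjusted p 0.000169).

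The ratio of the 2 eotaxins within a library does not depend on how that library was scaled to a total. Ccl11 stood at 1.08 to 1.35 times Ccl24 in Saline, 1.40 to 2.55 times in CDG_HDM, 1.44 to 2.64 times in AM155 and 1.49 to 2.34 times in Dex_CDGHDM. All 22 libraries outside Saline were therefore above the highest Saline ratio. Ccl24, the denominator, was called lower than Saline in these same libraries. A wider ratio follows from those calls and adds no further test.

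Of the receptors, Ccr3, through which both eotaxins act, measured 2.69, 2.23, 2.09, 2.56 and 2.64 TPM in the Saline libraries. CDG_HDM ran from 1.03 through 1.33 to 1.63 TPM, again with no overlap. Mean TPM fell from 2.44 ± 0.265 (SD, n = 5) to 1.33 ± 0.192 (SD, n = 10), and the log2 change was -0.57 ± 0.0905 (SE; 95% interval -0.75 to -0.38; limma adjusted p 1.53e-05). On the log2(TPM + 1) scale the change of so low a gene is understated: the mean in CDG_HDM was 0.543 of that in Saline.

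Il5ra, the interleukin-5 receptor subunit that gives eosinophils and B-1 cells their response to this cytokine, measured 4.52, 2.68, 4.52, 5.17 and 5.25 TPM in Saline 2, 4, 5, 8 and 10. It ran from 2.87 to 4.22 TPM in CDG_HDM, so Saline 4 lay below all 10 sensitized libraries and the other 4 Saline libraries lay above them. The log2 change was -0.24 ± 0.106 (SE; 95% interval -0.45 to -0.02; limma adjusted p 0.0892). Without Saline 4 it was -0.37, with an adjusted p of 0.00262, so this library decided the call.

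Among the granule genes, Prg2 measured 2.63, 2.09, 2.12, 1.98 and 2.00 TPM in the Saline libraries. In CDG_HDM it ran from 2.38 through 4.02 to 5.61 TPM. Only CDG_HDM 3 of the 10 sensitized libraries lay below the highest Saline library, Saline 2. Mean TPM rose from 2.16 ± 0.268 (SD, n = 5) to 4.07 ± 1.01 (SD, n = 10), 1.88-fold, and the log2 change was 0.66 ± 0.134 (SE; 95% interval 0.39 to 0.93; limma adjusted p 0.000297).

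The other granule genes were near the bottom of the table. Epx measured 0.258, 0.0915, 0.0924, 0.157 and 0.137 TPM in the Saline libraries and 0.0672 to 0.263 TPM in CDG_HDM. Its log2 change was -0.03 ± 0.0399 (SE; limma adjusted p 0.653, fit without filter). Ear6, a ribonuclease gene, measured 0.499, 0.169, 0.595, 0.270 and 0.626 TPM in Saline and 0.226 to 0.949 TPM in CDG_HDM, with a log2 change of 0.06 ± 0.106 (SE; limma adjusted p 0.737, fit without filter). Both genes overlapped between the groups, and 27.5% of 21434 genes changed in the fit without filter. Ear6 has paralogs in the Ear family, and their sequences were not compared here. How any reads shared by Ear6 and its paralogs were assigned is not given in the sources used here, so the Ear6 values are uncertain.

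**Figure D2:**
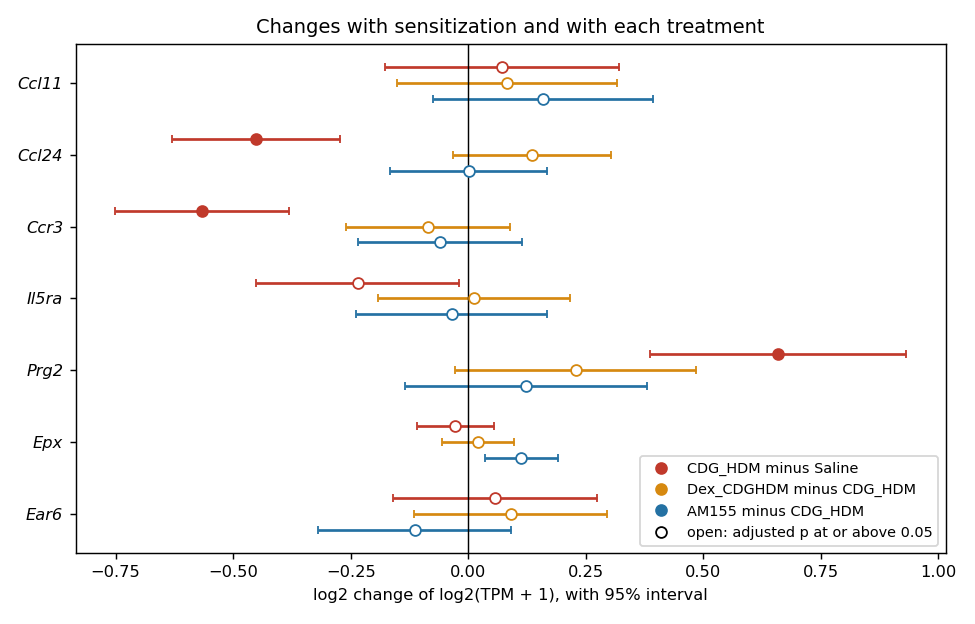
Log2 change of each member with its 95% interval (x axis) for sensitization, dexamethasone and antimiR-155, with filled points at an adjusted p under 0.05. The filled points are those of Ccl24, Ccr3 and Prg2 under sensitization, at -0.45, -0.57 and 0.66.

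Prg2 was called higher and Ccr3 lower in these same libraries, so a wider ratio follows from those calls and adds no further test. Prg2 stood at 0.759 to 1.01 times Ccr3 in Saline and at 1.64 to 4.59 times in CDG_HDM. It stood at 2.72 to 4.82 times in AM155 and 2.75 to 5.86 times in Dex_CDGHDM. No library outside Saline reached down to the Saline values.

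**Figure D3:**
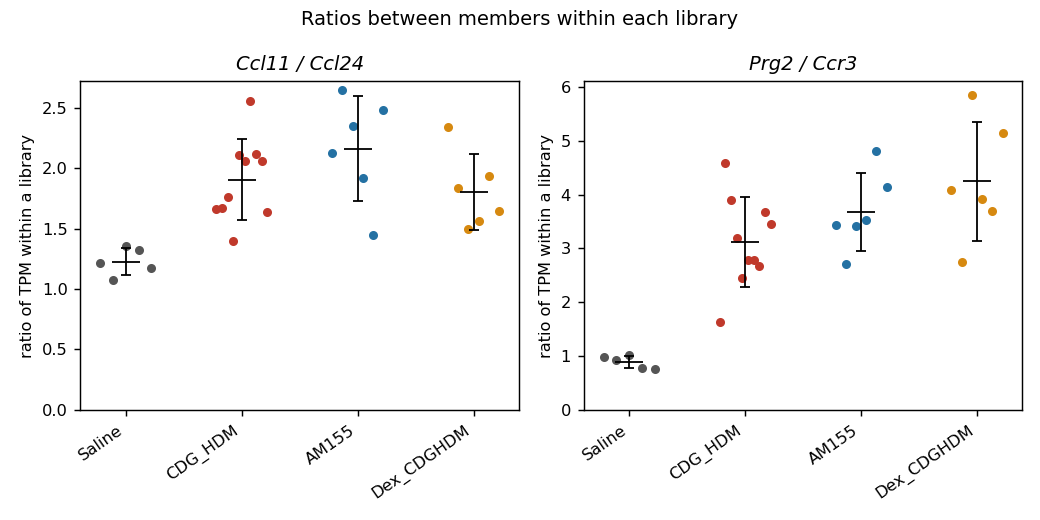
Ratio of TPM between members within each library (y axis, from 0; points, with mean and SD) by group. Both ratios are lowest in Saline, at 1.08 to 1.35 for Ccl11 over Ccl24 and 0.759 to 1.01 for Prg2 over Ccr3.

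Scaling matters here because the median tested gene fell by 0.10 on the log2 scale in the values as deposited, and lay at 0.01, -0.01 and 0.04 after median-of-ratios scaling, quantile normalization and scaling to a common linear sum. Those scalings also moved the split of all calls from 1631 higher and 3976 lower to 3903 and 3757, 3571 and 4250, and 4567 and 2705. The direction of the 7 members was the same in all of them. Ccl24 ran from -0.45 to -0.31, Ccr3 from -0.57 to -0.45 and Prg2 from 0.66 to 0.77, each still with an adjusted p under 0.05. Il5ra passed with quantile normalization (-0.14, adjusted p 0.0412) and in no other scaling.

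**Figure D4:**
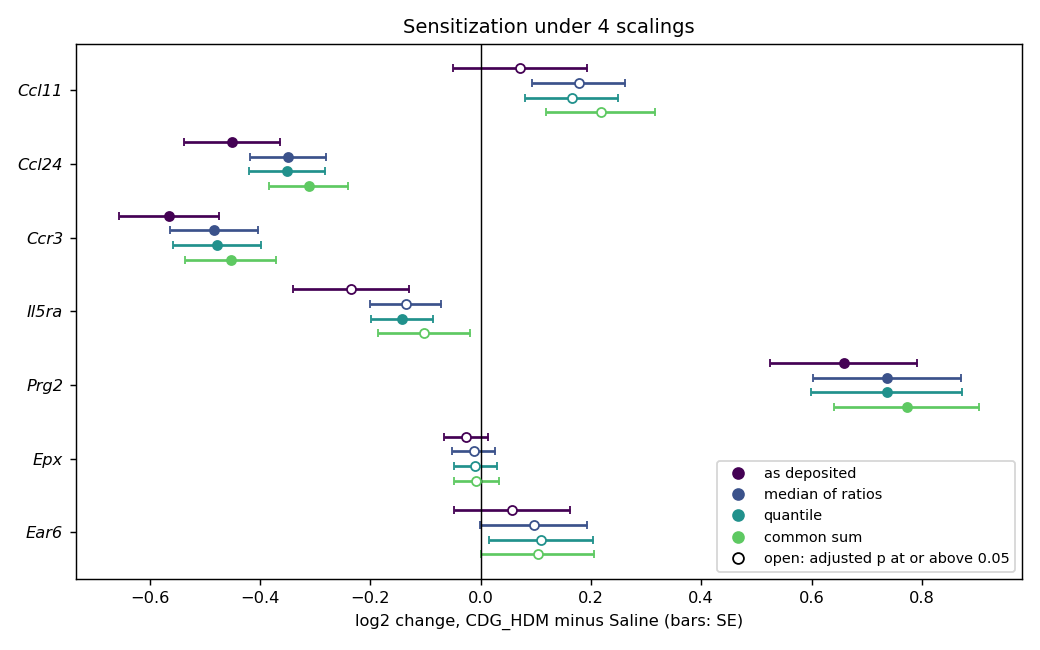
Log2 change of each member with sensitization (x axis, bars are SE) in the values as deposited and after 3 other scalings, filled at an adjusted p under 0.05. Ccl24, Ccr3 and Prg2 are filled in all 4, and Il5ra is filled with quantile normalization.

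Other genes of the eosinophil lineage did not move as a group. Of 7 tested, 2 rose, 2 fell and 3 did not pass the test, with a median log2 change of -0.08. Over all tested genes 9.35% rose and 22.8% fell, shares that also stand beside the counts of each list below. Adgre1 (the macrophage and eosinophil surface protein F4/80) rose by 1.51 and Alox15, a lipoxygenase of eosinophils and macrophages, fell by 0.83. Siglecf, a surface receptor of eosinophils and alveolar macrophages, measured 9.69 ± 0.947 TPM (SD, n = 5) in Saline and 9.45 ± 1.43 (SD, n = 10) in CDG_HDM, at a limma adjusted p of 0.809, and its small negative log2 change of -0.04 turned positive in the 3 other scalings, at up to 0.11. Prg3, a homolog of major basic protein, rose from 0.0586 to 0.156 TPM across the Saline libraries to 0.123 to 0.508 TPM across CDG_HDM (log2 change 0.23, limma adjusted p 0.0346, fit without filter). That call was lost without any 1 of Saline 2, 5, 8 and 10 and CDG_HDM 8, 13 and 14, at adjusted p values up to 0.0841. It was also lost in a model with the replicate number as a block (a replicate block), at an adjusted p of 0.271.

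A pair of calls in that list was less stable. Ear2, a ribonuclease gene that alveolar macrophages also express, measured 153 TPM on average in Saline and 217 TPM in CDG_HDM (log2 change 0.46, limma adjusted p 0.0414). The call was lost without any 1 of Saline 2, 5 and 10 and CDG_HDM 3, 7, 9, 10, 12 and 13, at adjusted p values up to 0.129. It was also lost without filter, with a replicate block and with only the 2 groups compared. Leaving out the 3 libraries richest in circular RNA lost it as well. Across these settings the limma adjusted p reached 0.477. Cebpe, a transcription factor of granulocyte maturation, fell by 0.35 (adjusted p 0.0203). Its call was lost with quantile normalization (0.0547), with a common linear sum (0.0659), with a replicate block (0.103) and without Saline 10 (0.0671).

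Marker genes of other cell types differed in the same libraries. The summed TPM of 9 interstitial macrophage and monocyte genes was 223 to 275 in Saline and 689 to 1570 in CDG_HDM, and 9 of 9 rose. The sum of 14 B and plasma cell genes was 308 to 461 in Saline and 2254 to 4196 in CDG_HDM. In that list 8 of 14 rose, with Jchain at 7.28, Mzb1 at 2.57, Irf4 at 2.21 and Derl3 at 2.00 as the 4 largest log2 changes.

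The alveolar macrophage list, which shares Ear1, Ear2 and Siglecf with the eosinophil list, had 4 of 11 higher and 3 lower, and its sum was 513 to 611 against 442 to 937. In the macrophage lists the largest rises were those of Ms4a7 (2.98), C1qb (2.67), C1qc (2.57), C1qa (2.53), Itgax (1.52) and Chil3 (1.28), and the largest falls those of Fabp1 (-1.19) and Car4 (-1.04). In the fibroblast list 3 of 10 rose and 3 fell, Pi16 by 1.16 and Pdgfra by 0.80 among the latter.

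Several mast cell, basophil and neutrophil genes were lower. Of 7 tested mast cell and basophil genes 5 fell, led by Gata2 (-0.90), Cpa3 (-0.84), Tpsb2 (-0.65) and Kit (-0.64). Mcpt4 (-0.09), Ms4a2 (-0.07) and, in the fit without filter, Mcpt8 (-0.17) did not pass (limma adjusted p 0.543, 0.678 and 0.241). The summed TPM went from 120 to 162 in Saline to 65.9 to 117 in CDG_HDM. Gata2 (64.5 TPM) and Kit (59.7 TPM) made up most of the Saline mean sum of 150 TPM. Of 10 neutrophil genes 7 fell, led by Retnlg (-1.41), S100a8 (-1.26), S100a9 (-1.24) and Ltf (-1.11), and their sum went from 645 to 1317 to 273 to 690. The Ltf call was lost without any 1 of Saline 2, 5 and 10, at adjusted p values up to 0.0721, and with a replicate block (0.0923). Mast cells and basophils can carry CCR3 as well. The part of these shifts in the values of Prg2, Ccr3, Ccl24 or Il5ra was not tested.

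The interleukin-5 family and its shared receptor moved upward except for Il5 itself. Of 6 tested genes 5 rose, among them Csf2ra (1.10), Csf2rb2 (0.81), Csf2rb (0.74), the beta chain that the interleukin-5 receptor shares, and Csf2 (0.57). Il5 measured 15.1 ± 3.58 TPM (SD, n = 5) in Saline and 12.2 ± 1.86 (SD, n = 10) in CDG_HDM, a log2 change of -0.28 with a limma adjusted p of 0.0397. That call was lost in the 3 other scalings (-0.12 to -0.19), with a replicate block and with only the 2 groups compared. It was also lost without any 1 of Saline 5 and CDG_HDM 4, 7, 8, 12, 13 and 14 (the latter up to 0.0692), and without Saline 5 the change was -0.15 with an adjusted p of 0.269.

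Other ligands of CCR3 and the scavenger receptors that remove chemokines were split, with 3 of 6 higher and 2 lower. Ccl7 rose by 0.71 from 1.98 to 4.07 TPM on average, and Ccl5 by 0.54 from 63.3 to 94.0 TPM. The Ccl5 call was lost without any 1 of Saline 4 and 5 and CDG_HDM 4, 9, 13 and 14, at adjusted p values up to 0.130, and the Ccl7 call without Saline 5 (0.0536). The Ccl5 call was also lost without filter and with a replicate block (up to 0.146), and the Ccl7 call with a replicate block (0.176). Of the scavengers, Ackr2 fell by 0.80 and Ackr4 by 0.68, while Ackr1 rose by 0.55. The Ackr1 call was lost without Saline 8 (0.0619) and with a replicate block (0.207). Ackr4 lies within Acad11 on the opposite strand and Ackr1 shares bases with Cadm3 on the same strand, so these 2 values are uncertain.

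Among 12 genes of eotaxin induction by interleukin-4 and interleukin-13, 4 rose and 2 fell. Tnf rose by 1.44, Il2rg by 0.60 (a gene that shares its locus with the annotated Gm20489) and Il33, an epithelial alarmin, by 0.47. Il1rl1, the receptor of interleukin-33, fell by 0.55. Il4 measured 2.64 TPM in Saline and 2.80 in CDG_HDM, and Il13 2.04 and 1.91 TPM, with limma adjusted p values of 0.677 and 0.718.

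Of 9 tested adhesion genes that eosinophils use to leave vessels, 5 rose and 2 fell, where 9.35% of all tested genes rose and 22.8% fell. The rises included Itgb2 (1.16), Selplg (0.82), Vcam1 (0.80), the endothelial ligand of the integrin alpha-4 chain, Itgb7 (0.79) and Itga4 (0.49), which overlaps Cerkl on the opposite strand. The falls were those of Itgb1 (-0.34) and Selp (-0.25), at limma adjusted p values of 0.0234 and 0.0296. After scaling to a common linear sum 5 rose and 0 fell. These integrin chains are carried by many leukocytes.

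The next question was whether dexamethasone moved the members in sensitized lung (Dex_CDGHDM minus CDG_HDM). None of the 5 tested members passed, limma gave 0 at an unadjusted p under 0.05, and 0.00573% of all tested genes changed. Ccl24 measured 4.55, 6.17, 4.96, 4.50, 4.83 and 5.31 TPM in Dex_CDGHDM 1, 2, 3, 4, 5 and 6, within or above the CDG_HDM range, and its log2 difference was 0.14 (95% interval -0.03 to 0.30). Prg2 measured 5.35, 5.29, 5.60, 3.30, 4.61 and 5.21 TPM, with 5 of 6 libraries above the CDG_HDM mean and a difference of 0.23 (-0.03 to 0.49).

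Ccr3 measured 1.31, 1.92, 0.956, 0.842, 1.25 and 1.01 TPM in the same libraries, the widest spread of any group for this gene, with a difference of -0.09 (-0.26 to 0.09). Dex_CDGHDM 2 was above all CDG_HDM libraries and 3 others were below them all. Ccl11 differed by 0.08 (-0.15 to 0.32) and Il5ra by 0.013 (-0.19 to 0.22). Epx and Ear6, in the fit without filter, where 0.00933% of genes changed, differed by 0.02 (-0.06 to 0.10) and 0.09 (-0.11 to 0.29). The limma adjusted p was 0.9998 for each of the 5 tested members. These intervals are on the log2(TPM + 1) scale, which compresses Epx and Ear6 most: the ratios of their mean TPM were 1.13 and 1.18.

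For antimiR-155 (AM155 minus CDG_HDM) none of the 5 tested members passed either, limma again gave 0 at an unadjusted p under 0.05, and 0.103% of all tested genes changed. Ccl11 measured 11.6, 11.5, 9.27, 6.95, 7.70 and 11.0 TPM in AM155 2, 3, 5, 6, 8 and 11. Of these, 3 were above every CDG_HDM library, and the log2 difference was 0.16 (95% interval -0.07 to 0.39; adjusted p 0.703). Ccl24 differed by 0.00058 (-0.17 to 0.17), Ccr3 by -0.06 (-0.23 to 0.11), Prg2 by 0.12 (-0.13 to 0.38) and Il5ra by -0.04 (-0.24 to 0.17).

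Epx was the member nearest to a difference under antimiR-155. It measured 0.219, 0.153, 0.304, 0.173, 0.160 and 0.294 TPM in AM155 2, 3, 5, 6, 8 and 11, all 6 above the CDG_HDM mean of 0.125 ± 0.0567 (SD, n = 10). The mean TPM was 1.73 times that of CDG_HDM. The log2 difference was 0.11 ± 0.0376 (SE), with an unadjusted p of 0.00577 and an adjusted p of 0.580 in limma without filter, where 0.084% of 21434 genes changed. With a pseudocount of 0.1 it was 0.50 (limma adjusted p 0.575). At these levels the values are far under 1 TPM, and the read counts behind them are not known. Ear6 differed by -0.11 (-0.32 to 0.09), with a ratio of mean TPM of 0.752.

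Leaving out AM155 5, AM155 6 and Dex_CDGHDM 4, a choice made after seeing the data, gave no call among the members in either treatment comparison. Without them Ccl11 differed by 0.27 under antimiR-155 and Prg2 by 0.32 under dexamethasone, with adjusted p values of 0.9998 and 0.844. Of the listed genes tested, only neutrophil genes passed under antimiR-155 in the values as deposited: 4 of 10 rose, Ngp by 2.36, Camp by 1.71, S100a8 by 1.41 and S100a9 by 1.37. The last call was lost without AM155 3 (adjusted p 0.067) or AM155 8 (0.0538). In the fit without filter the basophil protease gene Mcpt8 also rose, by 0.50 (limma adjusted p 0.0392), from 0.341 to 0.874 TPM. No gene of any list passed under dexamethasone.

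Dexamethasone and antimiR-155 were also set against each other. No tested member passed (0 of 5, 0 at an unadjusted p under 0.05 in limma, where 0.0803% of all tested genes changed). Ccl24 differed by 0.14 (95% interval -0.05 to 0.32) and Prg2 by 0.10 (-0.18 to 0.39), each higher in Dex_CDGHDM. Epx was lower in Dex_CDGHDM by 0.09 (-0.18 to -0.01; adjusted p 0.691, fit without filter, where 0.056% of genes changed).

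Against the same 5 Saline libraries, Prg2, Ccr3 and Ccl24 differed in both treated groups. These comparisons share the Saline libraries with the sensitization comparison and are given side by side. Of the 5 tested members 3 passed in each, 1 higher and 2 lower, where 25.1% of all tested genes changed in Dex_CDGHDM (7.59% higher and 17.5% lower) and 40.5% in AM155 (7.82% higher and 32.7% lower). Prg2 was higher by 0.89 in Dex_CDGHDM and 0.78 in AM155 (limma adjusted p 4.24e-05 and 0.00014), and Ccr3 lower by 0.65 and 0.63 on the log2 scale (1.43e-05 and 1.83e-05). Both genes separated from Saline without overlap, as 17.3% and 17% of all tested genes did, and Ccl24 did so in AM155.

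Ccl24 differed from Saline by -0.32 in Dex_CDGHDM (limma adjusted p 0.0154) and -0.45 in AM155 (0.000531). The first value was -0.14 with an adjusted p of 0.178 after scaling to a common linear sum. Ccl11 lay above Saline by 0.15 in Dex_CDGHDM and 0.23 in AM155 (adjusted p 0.427 and 0.166). It passed in the 3 other scalings in both groups, at up to 0.34 and 0.48. Il5ra differed by -0.22 and -0.27 (adjusted p 0.168 and 0.0637) and passed in both without Saline 4 (-0.36 and -0.40), and in AM155 also without AM155 3 (-0.30) or AM155 11 (-0.31). Epx in AM155 differed from Saline by 0.09 (adjusted p 0.136, fit without filter, where 33.8% of genes changed, against 20.9% in Dex_CDGHDM). It passed in the 3 other scalings (0.11 to 0.13) and without Saline 2 (0.12).

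In the order of group means, Ccl11 ran from Saline (8.01) through CDG_HDM (8.50) and Dex_CDGHDM (9.08) to AM155 (9.68 TPM), and no neighbours in that order differed by more than the larger of their SDs. For Ccl24 the order was CDG_HDM (4.51), AM155 (4.53), Dex_CDGHDM (5.05) and Saline (6.51 TPM), and only the last step was larger than the SDs. For Ccr3 it was Dex_CDGHDM (1.21), AM155 (1.24), CDG_HDM (1.33) and Saline (2.44 TPM), again with only the last step beyond the SDs.

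Prg2 ran from Saline (2.16) to CDG_HDM (4.07), AM155 (4.51) and Dex_CDGHDM (4.89 TPM), with only the first step beyond the SDs. Il5ra ran from AM155 (3.47) through CDG_HDM (3.55) and Dex_CDGHDM (3.58) to Saline (4.43 TPM), and Ear6 from AM155 (0.372) through Saline and CDG_HDM to Dex_CDGHDM (0.582 TPM), with no step beyond the SDs. For Epx only the step from Saline (0.147) to AM155 (0.217 TPM) was.

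The members varied among themselves within groups. Correlations were taken on deviations of log2(TPM + 1) from the group means over the 27 libraries, whose values share each library's scaling and total. Ccl11 went with Il5ra (r = 0.73, Spearman rho 0.69) and with its receptor gene Ccr3 (r = 0.65, rho 0.55), and Ccr3 with Il5ra (r = 0.53, rho 0.61). Prg2 reached at most 0.36 with any other member, and the 2 eotaxins stood at 0.41 (0.25 without the 2 farthest libraries). The linear sum of the library correlated at 0.60 with Ccl11, 0.63 with Il5ra, 0.53 with Ccl24, 0.41 with Ccr3 and 0.26 with Prg2. Without the 2 farthest libraries these were 0.57, 0.45, 0.35, 0.35 and 0.016, in the same order. The value for Prg2 thus rested on those libraries, and those for Il5ra and Ccl24 did in part.

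The gene whose deviations were most like those of Ccl11 was Myh11, the smooth muscle myosin heavy chain (r = 0.88, rho 0.86, 0.84 without the 2 farthest libraries), followed by Lmod1 and Zcchc9 (both 0.87). All 6 smooth muscle genes of the list were between 0.68 and 0.88. Yet the smooth muscle genes fell with sensitization, 6 of 6, led by Cnn1 (-1.49), Acta2 (-1.20), Actg2 (-1.14) and Des (from 74.1 to 37.1 TPM), while Ccl11 did not pass the test. Their summed TPM went from 629 to 846 in Saline to 163 to 447 in CDG_HDM. Ccl11 stood at 0.197 to 0.297 times Myh11 in Saline and 0.377 to 0.556 times in CDG_HDM. It stood at 0.443 to 0.621 times in AM155 and 0.367 to 0.441 times in Dex_CDGHDM.

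**Figure D5:**
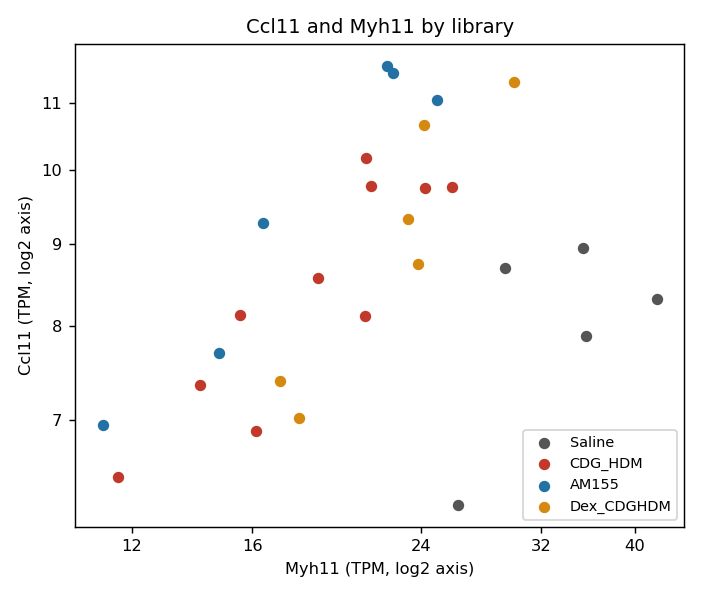
Ccl11 against Myh11 in each library (TPM, both axes on a log2 scale, colours are groups). Libraries with more Ccl11 mostly have more Myh11 within the sensitized and treated groups, and each of the 5 Saline libraries has more Myh11 than the other libraries of similar Ccl11.

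For Ccl24 the nearest genes were Gnl3 (r = 0.83), Fam216b (0.80) and Agr3 (0.79), the last an airway epithelial gene. For Ccr3 they were Retnlg, a neutrophil gene (0.77), F5 (0.77) and Wnt3 (0.76), each at 0.62 to 0.70 without the 2 farthest libraries. For Prg2 they included Ros1 (0.68) and Cd83 (0.67). For Il5ra they were Upf3b (0.94), Atxn7l1 and Gm14137 (both 0.93), while its median r with the 7 other eosinophil genes was -0.02, from -0.10 to 0.86 (Gata1, named after its value was seen). The median r of Prg2 with those 7 genes was 0.12, from -0.35 to 0.39. It was 0.33 with 14 B and plasma cell genes, 0.35 with 9 interstitial macrophage and monocyte genes and 0.34 with 9 adhesion genes. These 3 lists were named after their values were seen. Each r is over 27 libraries, and the 3 nearest genes of a member are those with the highest r of 17436 compared.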

How the data were processed

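Ribosome-depleted, stranded, paired-end RNA sequencing of lung gave TPM values that the authors deposited per gene symbol, separately for linear and for circular transcripts. The build was mm10 (GRCm38) and CASAVA 1.9 was used, per the submitters' processing notes. Aligner, quantifier, annotation and filters were not given in the sources used here. TPM keeps no read counts, so depth is unknown and no counting interval is given.

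Linear values entered as log2(TPM + 1) for 17437 genes at 1 TPM or more in at least 5 of 27 libraries, in 1 model over the 4 groups (limma 3.58.1, R 4.3.3, eBayes with trend, two-sided). Adjusted p is Benjamini-Hochberg over all genes tested, with a threshold of 0.05. Epx, Ear6 and other genes under the filter come from a fit of 21434 genes without it. The model was tested on simulated data of 17437 genes, where it recovered 84%, 92% and 90% of 1.5-fold changes, and 44%, 48% and 34% of 1.25-fold changes, at the group sizes of sensitization, dexamethasone and antimiR-155. Each simulation held 50 changed genes at each of 1.25-, 1.5-, 2- and 3-fold. It gave 177 and 172 calls at the 2 treatment group sizes, where the data gave 1 and 18. Fewer calls make the adjusted threshold stricter, so these shares need not hold for the treatment comparisons.

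Members and lists were chosen with earlier results of these data known. Named genes are the members, 13 chosen genes, the 4 largest called changes per list in the sensitization, dexamethasone and antimiR-155 comparisons, and the 3 genes nearest each tested member, of which 1 is not reported here. Alternatives were a pseudocount of 0.1, no filter, 3 scalings, only the 2 groups compared, a replicate block and leaving out each library. Leaving out the 3 libraries richest in circular RNA was added after seeing the data. Promoter windows came from RefSeq and positions from GENCODE M21. Levels, ratios and figures used Python 3.11.15.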

Additional observations from a re-analysis of the deposited data

Results flagged for a closer look

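In 3 of the 28 sets of libraries examined (7 genes in 4 groups), 1 library stood far from the others, by a test that chance alone meets in about 1 in 20 sets. Prg2 in Saline 2 was 2.63 TPM, where the next highest Saline library was at 2.12. Epx in CDG_HDM 5 was 0.263 TPM, where the next highest CDG_HDM library was at 0.155. Il5ra in Saline 4 was 2.68 TPM, where the next lowest Saline library was at 4.52.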

How the results depend on the processing

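The calls of Ccl24, Ccr3 and Prg2 under sensitization held in every alternative run, and 3 or 4 members were called there whichever library was left out. No member was called in the treatment comparisons in any alternative. The counts over all genes moved more. Under dexamethasone (1 gene) they were 0 with a pseudocount of 0.1, 2 without filter, 48 with median-of-ratios scaling, 63 with quantile normalization, 35 with a common sum, 2 with only the 2 groups, 3 without the 3 libraries, and 0 to 2 leaving out 1 library. Under antimiR-155 (18 genes) they were 34, 33 and 38 in the scalings and 7 to 21 leaving out 1 library. Between the treatments (14 genes) they were 103, 115 and 61 in the scalings, 27 with only the 2 groups, 3 without the 3 libraries, and 9 to 34 leaving out 1. AM155 against Saline (7059 genes) gave 4516 without the 3 libraries.

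The replicate numbers showed no clear pairing of the libraries: 20 same-numbered pairs correlated at -0.24 to 0.27 (median 0.02), 2 of them above 0.1. The median over 246 other pairs was -0.01. Correlations this weak do not show that the numbers were unrelated to how the libraries were handled. A replicate block gave 3315 genes for sensitization (5607 without), 0 for dexamethasone, 10 for antimiR-155 and 2815 for Dex_CDGHDM against Saline (4376 without). With the block Ccl24 was -0.40 (adjusted p 0.0149), Ccr3 -0.53 and Prg2 0.67 under sensitization, all called, and Ccl24 in Dex_CDGHDM against Saline lost its call (-0.26, 0.153).

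Values near 0 changed sign, none of them called. With the block these were Epx (0.014 sensitization, -0.017 dexamethasone), Il5ra (-0.0092 dexamethasone), Ccl24 (-0.075 antimiR-155) and Ccr3 (0.0072 between treatments). With a pseudocount of 0.1 Ccl24 was -0.00013 under antimiR-155. Under antimiR-155 Il5ra was 0.027, 0.0016 and 0.053 in the scalings and 0.064 without the 3 libraries, and Ccr3 was 0.0026 with a common sum. Between treatments Il5ra was -0.0056 with median of ratios, -0.0078 with a common sum and -0.019 without the 3 libraries, and Ccr3 was 0.0014 without them. Against Saline, Epx in Dex_CDGHDM was 0.013, 0.014 and 0.021 in the scalings, and Ear6 in AM155 was 0.012 with a common sum and 0.0301 without the 3 libraries. Under sensitization Il13 was 0.027, 0.035 and 0.054 and Siglecf 0.066, 0.052 and 0.11 in the scalings.

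Leaving out 1 library turned the sign within these ranges: under sensitization Ccl11 -0.0067 to 0.11, Ear6 -0.013 to 0.11, Epx -0.046 to 0.00605, Il4 -0.087 to 0.18, Il13 -0.14 to 0.011 and Siglecf -0.092 to 0.011. Under dexamethasone Il5ra was -0.014 to 0.046, and under antimiR-155 Ccl24 was -0.046 to 0.0499 and Il5ra -0.074 to 0.051. Between treatments Ccr3 was -0.11 to 0.024 and Il5ra -0.038 to 0.087, and Epx in Dex_CDGHDM against Saline was -0.024 to 0.027. The cause of these shifts was not tested. Without read counts the precision of Epx and Ear6, all under 1 TPM, is unknown.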
